A study of Mus musculus with 6 samples.

Results

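The genes described here are Trp53, which encodes p53, and 9 genes that p53 is known to activate directly, chosen outside the BCL2 family of apoptosis regulators: Mdm2, Cdkn1a, Btg2, Ccng1, Trp53inp1, Plk3, Sesn1, Sesn2 and Zmat3. They were found in the deposited table by gene symbol, and all 10 were present among its 12161 genes. Messenger RNA had been sequenced from LSK cells, a bone marrow fraction sorted as negative for lineage markers and positive for Sca1 and Kit, which includes blood stem cells and multipotent progenitors. The 6 libraries fell into 2 groups. In the MIG-Hhex group, with 3 libraries, cells carried the retrovirus MIG-Hhex, which delivers the homeobox transcription factor Hhex. In the MIG group, also with 3 libraries, cells carried the retroviral vector MIG. Cells of both groups came from wild-type C57BL/6 mice. They were cultured for 2 days after infection with 4 cytokines, of which IL-3 and IL-6 were each used at 10 ng/mL, and SCF and Flt3 ligand each at 50 ng/mL, and RNA was taken from GFP-positive sorted cells. Hhex was thus raised by a retrovirus to the level that the virus gave, and the table does not separate reads of the vector from reads of the cells' own Hhex gene. Each group held replicates WT3, WT691 and WT703, which the series' design calls biological replicates, and values below are given in that order.

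The protein p53 is a transcription factor that is held at a low level because Mdm2, an E3 ubiquitin ligase and itself a p53 target, marks it for degradation. DNA damage and other stresses interrupt this loop mainly at the protein level, and p53 then activates genes that halt the cell cycle, limit growth, change metabolism or lead to cell death. In blood stem cells p53 and its target Cdkn1a are known for their part in quiescence and in the response to DNA damage.

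Of the 10 genes, 5 rose with MIG-Hhex, 1 fell and 4 did not pass the test. Btg2, Trp53inp1, Cdkn1a, Sesn2 and Ccng1 rose by between 1.25-fold and 2.17-fold, and Plk3 fell to a level 5.41-fold lower than in MIG cells. Trp53 itself, Mdm2, Sesn1 and Zmat3 were not called. Over all 12161 genes limma called 18.0% at an adjusted p under 0.05, with 9.44% higher and 8.52% lower. All 3 MIG-Hhex libraries lay above all 3 MIG libraries for 6 of the 10 genes, against 10.2% of all genes, and below them for 1 of the 10, against 11.1% of all genes. The log2 difference, MIG-Hhex minus MIG, was positive for 9 of the 10, with a median of 0.32, against a median of −0.02 and 46.1% positive over all genes. Since the RNA is from bulk cells, fewer cells of a type and less RNA per cell cannot be told apart in any of these values.

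**Figure D1:**
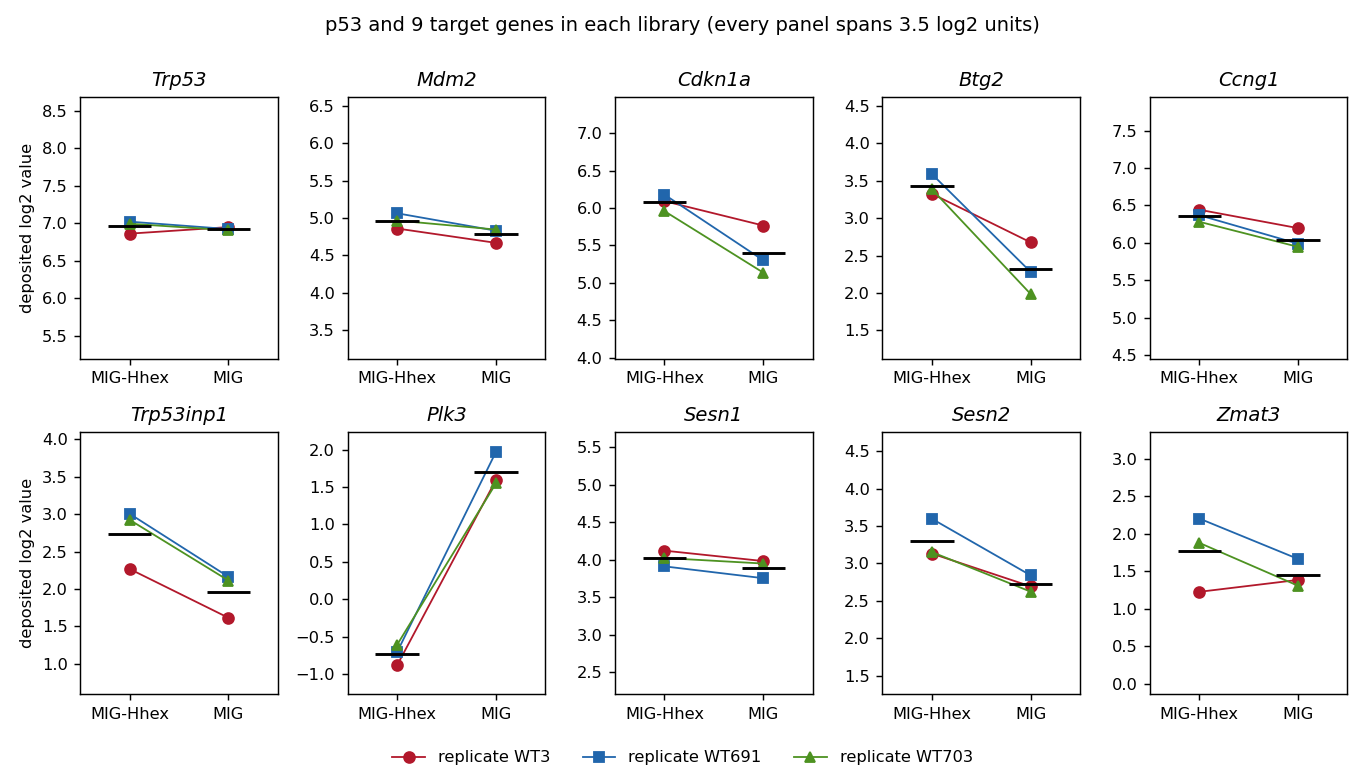
Deposited log2 value of each of the 10 genes in each library, with MIG-Hhex left of MIG. Points are single libraries, lines join those of the same replicate, and horizontal bars are the group means (n = 3 per group); Plk3 stands out with MIG-Hhex values between −0.88 and −0.61 and MIG values between 1.55 and 1.97.

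The added gene was checked first. Hhex had log2 values of 7.61, 9.34 and 9.06 in the MIG-Hhex libraries, against 5.18, 5.05 and 5.13 in the MIG libraries. The groups did not overlap, and the library of replicate WT3 held the lowest of the MIG-Hhex values (log2 difference 3.55, SE 0.32, limma adjusted p = 0.00189). Both WT3 libraries were run on flow cell C3RJFACXX and the other 4 on flow cell C5LWPANXX, so replicate WT3 and its flow cell cannot be told apart. Library medians lay between 3.56 and 3.60, and the depth is unknown because only log2 values are held. Of 15 markers of LSK and stem cells, 0 rose and 1 fell, and their summed log2 level was 8.72 to 9.09 with MIG-Hhex and 9.0 to 9.22 with MIG. Ly6a, which encodes Sca1, was at 3.55 in the MIG-Hhex library and 3.18 in the MIG library of replicate WT3, against 5.89 and 6.21 in the other MIG-Hhex libraries and 6.08 and 6.25 in the other MIG libraries. Both WT3 libraries were thus low in Ly6a, whichever vector they carried. Kit, the second sorting marker, lay between 4.44 and 4.77 with MIG-Hhex and between 4.62 and 4.86 with MIG. Markers of more mature cells also moved with the vector. Of 18 neutrophil and monocyte markers, 7 rose and 3 fell, and their summed log2 level was 12.66 to 13.33 with MIG-Hhex and 12.88 to 13.35 with MIG. Of 8 measured mast cell and basophil markers, 1 rose and 4 fell, with summed log2 levels of 7.34 to 8.11 with MIG-Hhex and 7.67 to 8.75 with MIG. In both lists the ranges of the groups' summed levels overlapped. Of 11 measured erythroid and megakaryocyte markers, 6 rose and 1 fell, with summed log2 levels of 6.81 to 7.03 with MIG-Hhex and 6.29 to 6.97 with MIG. Of the lymphoid markers only 2 were measured, of which 1 fell, with a summed log2 level of −1.60 to 0.64 with MIG-Hhex and 0.89 to 2.79 with MIG. Of 5 measured stromal and endothelial markers, 0 rose and 1 fell, with summed log2 levels of 4.73 to 5.11 with MIG-Hhex and 4.87 to 4.99 with MIG. The ranges of the summed level were apart for the lymphoid markers alone. Within each of the 3 replicate pairs, however, the MIG-Hhex library had the lower summed level of LSK, neutrophil and monocyte, mast cell and basophil, and lymphoid markers, and the higher summed level of erythroid and megakaryocyte markers. With the replicate block, 0 of the 15 LSK markers were called higher and 3 lower. Of the 11 erythroid and megakaryocyte markers that fit called 6 higher and 2 lower. It called 10 of the 18 neutrophil and monocyte markers higher and 3 lower. Of the 8 mast cell and basophil markers it called 1 higher and 5 lower. Of the lymphoid markers it called 0 higher and 1 lower, as it did of the stromal and endothelial markers. Over all genes it called 12.4% higher and 12.1% lower. The part of these cell types in the values of the p53 genes was not tested.

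Start regions are shown as background to the values, because p53 acts by binding DNA; whether the values depend on them was not tested. RefSeq start regions (GRCm38.p6, equivalent to mm10) were available for 8 of the 10 genes, and none was at hand for Trp53inp1 and Zmat3. The 8 genes had 10 windows, each from 250 bases before a transcription start to 50 after it. They were searched on both strands, without mismatch, for the 10-base p53 half-site consensus, which reads the same in both directions. A half-site was present in 5 of the 10 windows, in Cdkn1a, Ccng1, Mdm2, Trp53 and 1 of the 2 starts of Sesn1, against 8.36% of all 32851 windows in the table. A full site, meaning 2 half-sites no more than 13 bases apart, was present in 1 of the 10, the upstream start of Cdkn1a, and in 0.0731% of all windows, 24 in number. The homeodomain core TAATTA was found in 0 of the 10 windows, against 5.29% of all windows. A match describes the letters only, binding was not measured, and known p53 sites of some of these genes lie outside such windows.

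The 250 bases before the start are printed below, 5′ to 3′ on the gene's strand, for the 2 half-site genes that rose. They are Cdkn1a at chr17:29090729-29090978 (plus strand) and Ccng1 at chr11:40755287-40755536 (minus strand). Capitals mark p53 half-sites without mismatch, and near matches, some of which lie beside them, are not marked. In Cdkn1a the pair without mismatch begins 73 and 51 bases before the upstream start, with 12 bases between them. A near match directly follows the second of the pair. In Ccng1 the only half-site without mismatch begins 185 bases before the start used. That start lies inside the bounds of the gene, which reach base 40755309, so the last bases printed for Ccng1 fall within the gene.
Cdkn1a: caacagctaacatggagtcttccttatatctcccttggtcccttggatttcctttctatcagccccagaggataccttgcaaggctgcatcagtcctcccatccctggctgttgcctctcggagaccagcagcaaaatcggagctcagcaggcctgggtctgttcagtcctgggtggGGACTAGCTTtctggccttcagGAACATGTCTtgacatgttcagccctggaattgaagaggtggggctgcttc
Ccng1: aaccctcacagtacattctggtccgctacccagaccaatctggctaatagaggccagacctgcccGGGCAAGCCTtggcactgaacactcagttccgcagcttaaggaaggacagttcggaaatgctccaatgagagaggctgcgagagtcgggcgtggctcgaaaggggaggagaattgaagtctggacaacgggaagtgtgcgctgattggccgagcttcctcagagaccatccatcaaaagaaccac

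The half-sites of 3 genes that were not called are shown for comparison in windows of 40 bases, again with the half-site in capitals. They are Mdm2 at chr10:117710920-117710959 (minus strand), Trp53 at chr11:69580269-69580308 (plus strand) and Sesn1 at chr10:41887251-41887290 (plus strand), and the half-sites begin 186, 75 and 173 bases before the start, in that order.
Mdm2: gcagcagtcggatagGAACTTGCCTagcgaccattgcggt
Trp53: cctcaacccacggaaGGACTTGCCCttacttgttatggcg
Sesn1: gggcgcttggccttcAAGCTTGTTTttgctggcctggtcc

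Of the 6 called genes, Btg2, Sesn2 and Plk3 had no half-site without mismatch in their windows, and Trp53inp1 had no window to search. Btg2 and Plk3 are shown because they had the largest rise and the only fall. Their 250 bases before the start are at chr1:134079156-134079405 (minus strand) for Btg2 and at chr4:117133964-117134213 (minus strand) for Plk3. In Btg2 the capitals mark TGACGTCA, the CRE motif that CREB and ATF proteins bind, 166 bases before the start. That motif also reads the same on both strands, and it was found in 1.79% of all windows and in 1 of the 10. The Plk3 window held none of the motifs searched and has no capitals.
Btg2: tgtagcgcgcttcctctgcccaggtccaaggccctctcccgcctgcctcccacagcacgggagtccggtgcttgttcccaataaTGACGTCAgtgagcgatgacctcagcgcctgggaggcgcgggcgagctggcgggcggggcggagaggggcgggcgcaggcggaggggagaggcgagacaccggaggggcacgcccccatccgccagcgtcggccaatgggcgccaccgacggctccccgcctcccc
Plk3: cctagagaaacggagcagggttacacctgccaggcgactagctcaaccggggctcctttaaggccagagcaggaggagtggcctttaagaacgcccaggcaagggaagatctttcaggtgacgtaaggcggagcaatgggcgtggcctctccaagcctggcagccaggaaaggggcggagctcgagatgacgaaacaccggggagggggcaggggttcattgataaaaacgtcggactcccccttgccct

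Trp53, the source of p53, is at chromosome 11, bases 69580348 to 69591873 (Entrez gene 22059). Deposited log2 values of Trp53 were 6.86, 7.02 and 6.99 with MIG-Hhex, against 6.95, 6.92 and 6.91 with MIG. The groups overlapped, and the difference was negative in the WT3 pair and positive in the other two. The log2 difference was 0.03 (SE 0.06, limma adjusted p = 0.726), with a 95% interval from −0.10 to 0.17. Trp53 had the highest level of the 10, above 94.4% of all genes in the table. Its processed pseudogene Trp53-ps was not analysed here, and reads that match both copies could have been assigned to either.

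Mdm2, the ubiquitin ligase that limits p53, is at chromosome 10, bases 117688875 to 117710758 (Entrez gene 17246). Mdm2 had log2 values of 4.86, 5.06 and 4.97 with MIG-Hhex, against 4.67, 4.83 and 4.85 with MIG. Every MIG-Hhex library lay above every MIG library, though the lowest MIG-Hhex value was close to the highest MIG value. The log2 difference of 0.18 (SE 0.05, 95% interval 0.05 to 0.31) did not pass the test at an adjusted p of 0.063 by limma. With the replicate number as a block in place of the flow cell, Mdm2 was called at a limma adjusted p of 0.0487. Mdm4, the paralog that binds and inhibits p53, had a log2 difference of 0.22 and was not called (limma adjusted p = 0.382).

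The genes of cell cycle arrest and slowed proliferation come next. Cdkn1a encodes p21, the inhibitor of cyclin-dependent kinases through which p53 halts the cycle, and is at chromosome 17, bases 29090979 to 29100722 (Entrez gene 12575). In single libraries Cdkn1a stood at log2 values of 6.09, 6.18 and 5.96 with MIG-Hhex, against 5.77, 5.30 and 5.14 with MIG. The groups did not overlap, and the MIG library of replicate WT3 was the highest of the MIG libraries. Cdkn1a averaged 6.08 ± 0.11 with MIG-Hhex and 5.40 ± 0.33 with MIG (SD, n = 3 each), a 1.6-fold rise (log2 difference 0.68, SE 0.12, limma adjusted p = 0.0154). The difference was 0.33 in the WT3 pair, against 0.88 in the WT691 pair and 0.82 in the WT703 pair.

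Btg2, an antiproliferative cofactor that recruits the machinery for shortening poly(A) tails, rose most of the 10. It is at chromosome 1, bases 134074865 to 134079155 (Entrez gene 12227). By library, the log2 values of Btg2 were 3.33, 3.59 and 3.39 with MIG-Hhex, against 2.68, 2.28 and 1.98 with MIG. The means were 3.43 ± 0.14 with MIG-Hhex and 2.31 ± 0.35 with MIG (SD, n = 3 each), a 2.17-fold rise (log2 difference 1.12, SE 0.17, limma adjusted p = 0.00905). The 2 groups stood well apart, and again the WT3 pair differed least, by 0.65 against 1.31 and 1.40. Of the 1148 genes called higher, 294 had a larger log2 difference than Btg2.

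Ccng1 encodes cyclin G1, a p53 target that brings a phosphatase to Mdm2, and is at chromosome 11, bases 40748552 to 40755309 (Entrez gene 12450). By library, Ccng1 had log2 values of 6.44, 6.37 and 6.28 with MIG-Hhex, against 6.20, 5.99 and 5.95 with MIG. The change was the smallest of the 5 rises, 1.25-fold, but it was alike in all 3 pairs at 0.25, 0.38 and 0.34 (log2 difference 0.32, SE 0.05, limma adjusted p = 0.0124). Of the 1148 genes called higher, 982 rose more than Ccng1.

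Plk3, a polo-like kinase linked to stress checkpoints, moved the other way. It is at chromosome 4, bases 117128655 to 117133963 (Entrez gene 12795). Plk3 had log2 values of −0.88, −0.71 and −0.61 with MIG-Hhex, against 1.59, 1.97 and 1.55 with MIG. The gap between the groups was many times the spread within either. Plk3 averaged −0.73 ± 0.14 with MIG-Hhex and 1.70 ± 0.23 with MIG (SD, n = 3 each), a log2 difference of −2.43 (SE 0.18, 95% interval −2.87 to −2.0, limma adjusted p = 0.00121). The pairs differed by −2.47, −2.67 and −2.16, so all 3 showed the fall at nearly the same size. Among the 1036 genes called lower, 56 had a larger fall. Plk3 was also the weakest of the 10 with MIG-Hhex, and the size of a fold change at values below 0 depends on the offset the authors added before taking logs. After adding 1 to the linear values the log2 difference was −1.41.

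The remaining genes act in stress responses and metabolism. Trp53inp1 encodes a stress-induced protein that works with p53 in cell death and also takes part in autophagy, and is at chromosome 4, bases 11156441 to 11174379 (Entrez gene 60599). By library, Trp53inp1 had log2 values of 2.27, 3.01 and 2.92 with MIG-Hhex, against 1.62, 2.16 and 2.11 with MIG. Both WT3 libraries were lower than the others of their group, yet the groups did not overlap. The pairs differed by 0.65, 0.84 and 0.81, and the 1.7-fold rise passed the test (log2 difference 0.77, SE 0.10, limma adjusted p = 0.00487).

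The sestrins limit the growth kinase complex mTORC1 and protect against oxidative stress. Sesn2, which also senses leucine and is activated by ATF4 as well as by p53, is at chromosome 4, bases 132492804 to 132510456 (Entrez gene 230784). Sesn2 had log2 values of 3.13, 3.60 and 3.15 with MIG-Hhex, against 2.69, 2.84 and 2.62 with MIG. The groups did not overlap, and the 1.49-fold rise was called with the largest adjusted p of the 5 (log2 difference 0.57, SE 0.14, limma adjusted p = 0.0357). That call was lost in 6 of the 7 distinct fits with a replicate or library left out, with no flow cell term (limma adjusted p = 0.161) and with no mean-variance trend (limma adjusted p = 0.077). Sesn1, at chromosome 10, bases 41810574 to 41908436 (Entrez gene 140742), had log2 values of 4.12, 3.91 and 4.02 with MIG-Hhex, against 3.98, 3.75 and 3.95 with MIG. The groups overlapped, and the log2 difference of 0.12 was not called (SE 0.08, 95% interval −0.06 to 0.31, limma adjusted p = 0.298), although it was positive in each of the 3 pairs. Sesn3, the third sestrin, had a log2 difference of −0.35 and was not called either (limma adjusted p = 0.196).

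Zmat3 encodes an RNA-binding zinc finger protein that regulates splicing in the p53 response, and is at chromosome 3, bases 32334792 to 32365665 (Entrez gene 22401). The libraries gave Zmat3 log2 values of 1.23, 2.21 and 1.88 with MIG-Hhex, against 1.39, 1.67 and 1.31 with MIG. The groups overlapped because the MIG-Hhex library of replicate WT3 was the lowest of the 6. The log2 difference was 0.32 (SE 0.20, 95% interval −0.17 to 0.80, limma adjusted p = 0.31), with pair differences of −0.16, 0.54 and 0.57.

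**Figure D2:**
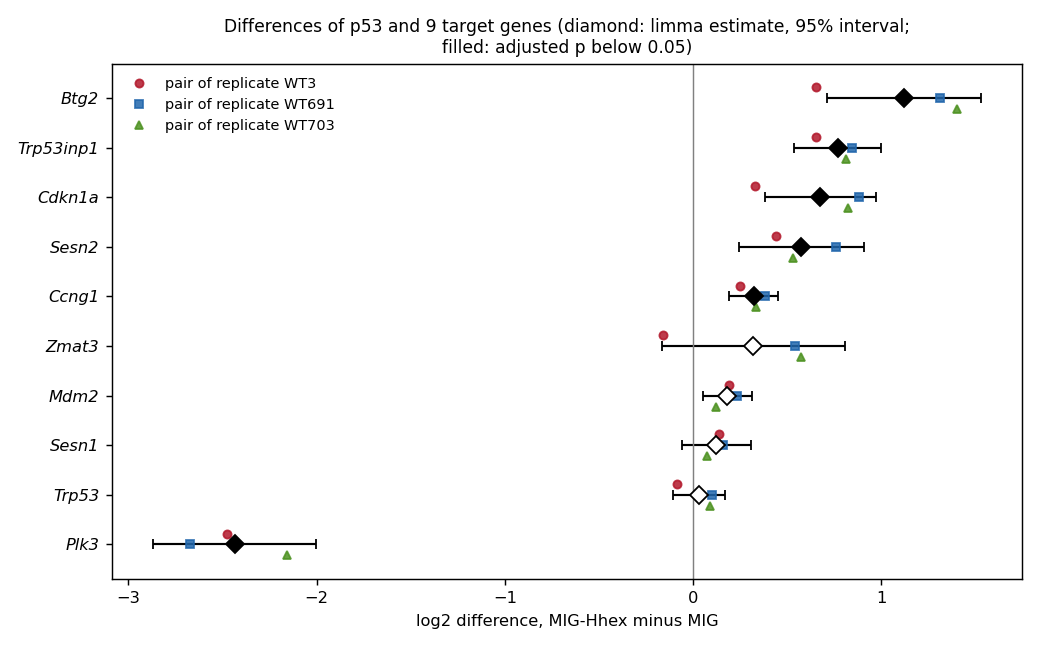
Log2 difference, MIG-Hhex minus MIG, of the 10 genes, with the fitted value and its 95% interval and each of the 3 replicate pairs as a point. Plk3 lies at −2.43, Btg2 at 1.12, and the intervals of Trp53, Sesn1 and Zmat3 include 0.

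The order of the levels, which read as values per gene length, was alike in the 2 groups except for a few places. With MIG-Hhex it ran from Trp53 at 6.96 through Ccng1 at 6.36, Cdkn1a at 6.08, Mdm2 at 4.96, Sesn1 at 4.02, Btg2 at 3.43, Sesn2 at 3.29, Trp53inp1 at 2.73 and Zmat3 at 1.77 to Plk3 at −0.73, as group means of the log2 value. With MIG, Sesn2 at 2.72 stood above Btg2 at 2.31, and Plk3 at 1.70 stood above Zmat3 at 1.45. With MIG-Hhex the ranges of the 3 libraries overlapped only between the neighbours Btg2 and Sesn2. With MIG the ranges overlapped between Sesn2 and Btg2, Btg2 and Trp53inp1, Trp53inp1 and Plk3, and Plk3 and Zmat3, so those neighbours were not separated beyond their spread; Trp53, Ccng1, Cdkn1a, Mdm2 and Sesn1 kept that order without overlap in both groups.

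Replicate WT3, on its own flow cell, showed the smallest difference of the 3 pairs in all 5 genes that rose. Hhex too differed least in the WT3 pair, by 2.43, against 4.29 in the WT691 pair and 3.93 in the WT703 pair. How often the WT3 pair differed least among the other genes called higher was not counted. The median pair difference of the 10 genes was 0.22 in the WT3 pair, 0.46 in the WT691 pair and 0.43 in the WT703 pair. Over all genes the medians lay between −0.03 and −0.02. Within flow cell C5LWPANXX alone, with 2 libraries a group, limma called 5.74% of all genes higher and 4.27% lower, and of the 10 genes it called 4 higher and 1 lower. Btg2 rose by 1.36 (adjusted p = 0.0113), Cdkn1a by 0.85 (adjusted p = 0.0142), Trp53inp1 by 0.83 (adjusted p = 0.0173) and Ccng1 by 0.36 (adjusted p = 0.0351) on the log2 scale, and Plk3 fell by 2.41 (adjusted p = 0.00811). Sesn2 differed by 0.64 there without a call (limma adjusted p = 0.0888). The call of the 5 rises rested on the flow cell term and on single libraries. With no such term 0 of the 5 were called, and without replicate WT703 also 0. Without the MIG library of WT703 2 were called, and without the MIG-Hhex library of WT691 3. Plk3 was called lower each time. Calls over all genes dropped in these fits too. The number called higher went from 1148 to 119, 355, 524 and 452, in that order. The number called lower went from 1036 to 98, 270, 357 and 370.

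The relatives of the 10 genes were compared next. The median log2 difference of the 17 measured paralogs was 0.22, against −0.02 over all genes. Of the 17 paralogs 4 rose, 0 fell and 13 were not called, against 9.44% called higher and 8.52% lower over all genes. The 4 were Ccni, a cyclin of the same branch as Ccng1, at 0.28 (limma adjusted p = 0.0232), the antiproliferative Tob1 at 0.37 (limma adjusted p = 0.0433) and Tob2 at 0.22 (limma adjusted p = 0.0342), and the autophagy protein Trp53inp2 at 0.64 (limma adjusted p = 0.0448). None of the other polo-like kinases was called with Plk3. The log2 difference was −0.00 for Plk1, which drives mitosis (95% interval −0.16 to 0.16, limma adjusted p = 0.998), 0.10 for Plk2 (−0.52 to 0.71, limma adjusted p = 0.823) and −0.00 for Plk4, which controls centriole duplication (−0.13 to 0.13, limma adjusted p = 0.982). The whole interval of Plk3 lay below those of the other 3. Of the other BTG proteins, Btg1 differed by 0.42 and Btg3 by −0.44, and of the other inhibitors of the p21 family, Cdkn1b differed by 0.26 and Cdkn1c by 1.30; these 4 were not called (limma adjusted p from 0.0656 to 0.224), although Btg1 was called with the replicate block (limma adjusted p = 0.0339). Ccng2, the second cyclin G, differed by 0.22 and was not called either (limma adjusted p = 0.17).

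**Figure D3:**
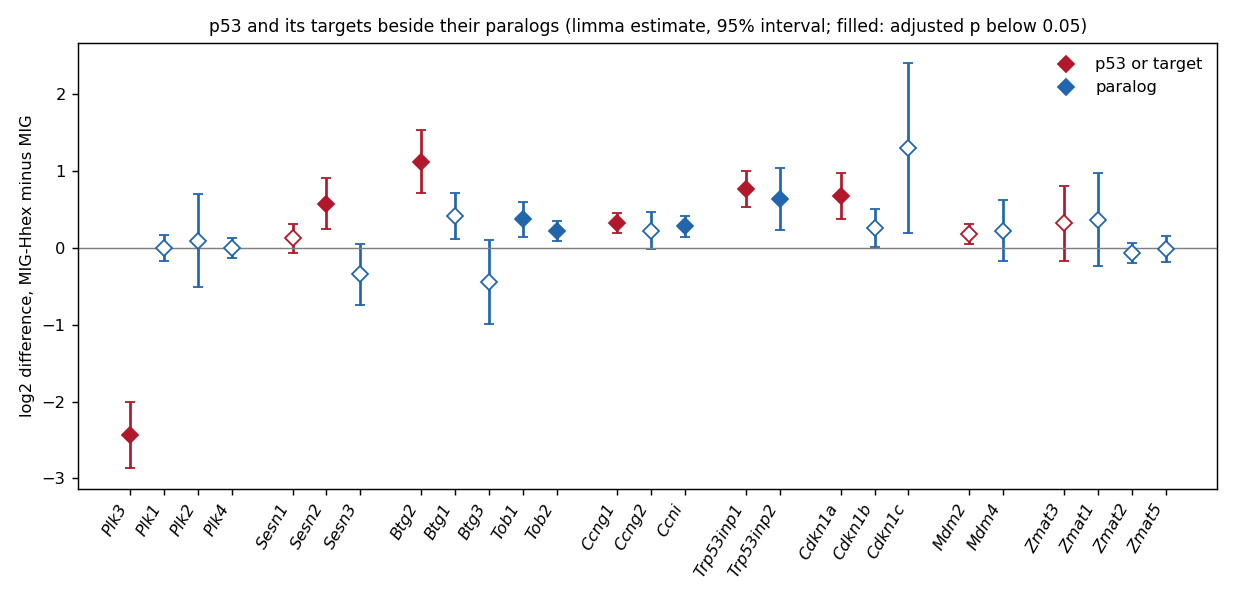
Log2 difference, MIG-Hhex minus MIG, with its 95% interval for the 10 genes apart from Trp53, and for their measured paralogs, grouped by family. Plk3 at −2.43 stands apart from Plk1, Plk2 and Plk4, which lie between −0.00 and 0.10.

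The proteins that act on p53 were described as a list. Of 32 measured regulators and cofactors 1 rose, 3 fell and 28 were not called, with a median log2 difference of −0.04, against 9.44% higher and 8.52% lower over all genes; the number that fell was near that background. With the replicate block 2 of the 32 were called higher and 4 lower, against 12.4% higher and 12.1% lower over all genes. Ep300, an acetyltransferase and coactivator of p53, rose by 0.30 (limma adjusted p = 0.0383). The 3 that fell were Rfwd2, Prmt5 and Ppm1d. Rfwd2, an E3 ligase that targets p53, had a log2 difference of −0.61 (limma adjusted p = 0.0169). The arginine methyltransferase Prmt5 had −0.33 (limma adjusted p = 0.017). Ppm1d, a phosphatase that dampens p53 signalling, had −0.32 (limma adjusted p = 0.0326). In the 9 fits with a replicate or library left out, Ep300 and Ppm1d each lost their call in 8, Rfwd2 in 6 and Prmt5 in 5. The 3 fits without a WT3 library gave equal differences, so these counts do not rank the genes. Without replicate WT3, Rfwd2 lost its call (limma adjusted p = 0.0796) and Prmt5 kept it (limma adjusted p = 0.0354). With no flow cell term none of Ep300, Rfwd2, Prmt5 and Ppm1d was called.

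Other known p53 targets numbered 72 measured genes, of which 13 rose, 3 fell and 56 were not called. Their median log2 difference was 0.09, and 46 were positive. Over all genes 9.44% were called higher and 8.52% lower, with a median log2 difference of −0.02 and 46.1% positive. Among 17 cell cycle and growth genes 3 rose and 0 fell, namely the stress gene Gadd45b at 0.44, Ier5 at 0.34 and Tob1 (limma adjusted p from 0.016 to 0.0433). Of 11 DNA repair and nucleotide supply genes, 0 rose and 0 fell. Of 18 genes of death receptors and apoptosis 2 rose and 2 fell: the adhesion protein Ninj1, which also ruptures membranes of dying cells, at 0.72 and the inflammasome adaptor Pycard at 0.54 rose, and the inflammatory caspase Casp1 at −0.68 and Triap1, an inhibitor of apoptosis, at −0.21 fell (limma adjusted p from 0.00291 to 0.0459). Of 26 metabolic, redox and autophagy genes 8 rose and 1 fell. The rises included Ddit4, an inhibitor of mTORC1, at 1.39, the adenylate kinase Ak1 at 1.28 and the proline-degrading enzyme Aldh4a1 at 0.50 (limma adjusted p from 0.00815 to 0.0143). Dram1, a lysosomal membrane protein of autophagy, fell to a level 2.4-fold lower than with MIG (log2 difference −1.26, limma adjusted p = 0.0325). With any 1 replicate or library left out, between 3 and 8 of the 72 were called higher and 1 or 2 lower, while over all genes the same fits called between 355 and 835 higher and between 270 and 634 lower.

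**Figure D4:**
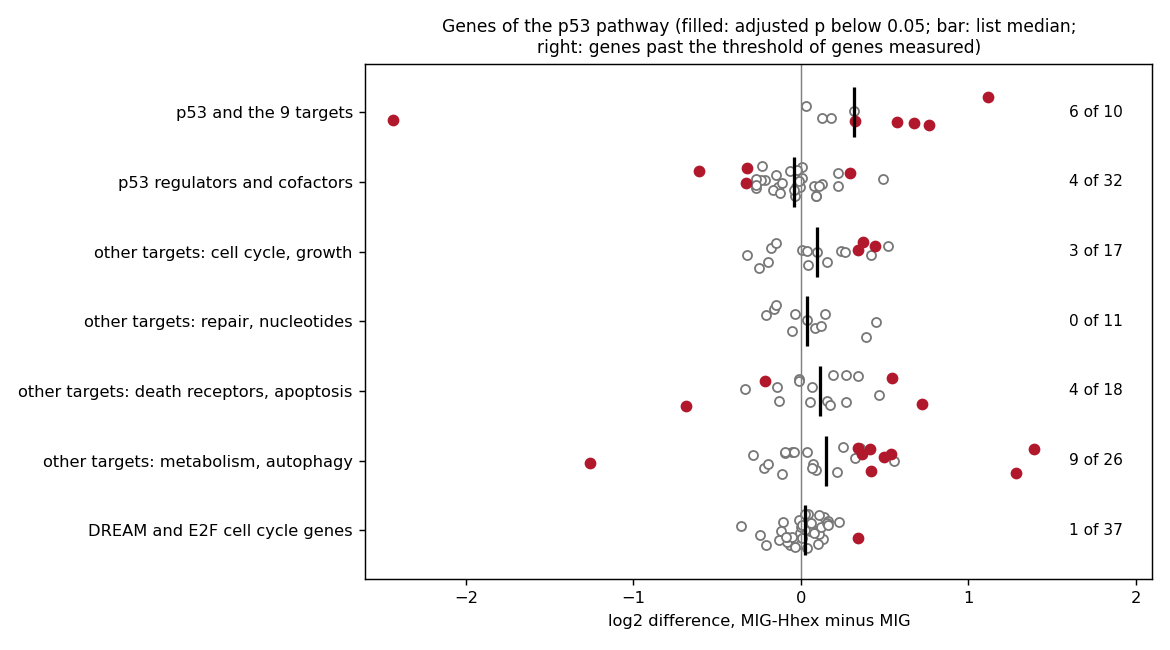
Log2 difference, MIG-Hhex minus MIG, of every measured gene in 7 lists of the p53 pathway, 1 point per gene, with called genes filled and a bar at the list's median. The medians of these 7 lists lie between −0.04 and 0.32.

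The genes of a list of DREAM and E2F cell cycle genes were nearly all without a call. The list holds genes that the p53 and p21 pathway represses through the DREAM complex. It also holds subunits of that complex, such as Lin9 and Rbl2. Of the 37 genes of this list 1 rose, Top2a, the DNA topoisomerase of dividing cells, by 0.34 (limma adjusted p = 0.0143), and 0 fell. Over all genes 9.44% were called higher and 8.52% lower. The median log2 difference of the list was 0.03. With the replicate block 2 of the 37 were called higher and 0 lower, against 12.4% higher and 12.1% lower over all genes. Other pathways share targets with p53, and their lists held called genes in both directions, at shares to be read against the 9.44% higher and 8.52% lower over all genes. Btg2 and Plk3 are also known as early response genes to growth factors. Of 23 other immediate early genes 3 rose and 1 fell: the nuclear receptor Nr4a1 at 1.21, Fosl2 at 0.65 and Jund at 0.62 rose, and Jun, a subunit of AP-1 like Fosl2 and Jund, fell at −0.87 (limma adjusted p from 0.00523 to 0.0291). With the replicate block 6 of the 23 were called higher and 5 lower, where 12.4% of all genes were called higher and 12.1% lower. Of 18 ATF4 stress response genes, Sesn2 among them, 3 rose and 2 fell, with Slc7a11, the cystine transporter, at 0.71 and Trib3 at 0.61 beside Sesn2, against Asns, asparagine synthetase, at −0.40 and Atf4 itself at −0.22 (limma adjusted p from 0.00519 to 0.0443). Of 15 FoxO target genes 2 rose and 2 fell, with Bnip3 at 0.97 and Txnip at 0.57, against Pik3ip1 at −1.51 and Cited2 at −0.50 (limma adjusted p from 0.00153 to 0.0139), and with the replicate block 4 were called higher and 2 lower. The pathway lists described here name 31 called genes beside the 10. With a replicate or library left out, 9 of the 31 kept a call in every one of the 9 fits. Those that kept it were Ninj1, Casp1, Aldh4a1, Nr4a1, Jun, Asns, Bnip3, Pik3ip1 and Cited2. Ier5, Tob1, Tob2, Triap1, Trib3 and Atf4 lost their call in all 9 fits. With no flow cell term 4 of the 31 were called.

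The genes whose pattern over the 6 libraries was most like that of Plk3 and Btg2 were found by the root mean square difference of the centred log2 values. For Plk3 they were Slco3a1, an organic anion transporter, at 0.19, Plxdc2 at 0.25 and Fcgr4, an activating Fc receptor of myeloid cells, at 0.30. For Btg2 they were Ublcp1, a proteasome phosphatase, at 0.08, Cds1, a lipid synthesis enzyme, at 0.09, and Tfr2, the transferrin receptor 2 of liver and erythroid cells, at 0.09. Slco3a1 had log2 values of 1.30, 1.34 and 1.70 with MIG-Hhex, against 3.79, 3.84 and 4.00 with MIG, so its level was higher than that of Plk3 in each library.

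Some reads could not be assigned with certainty. In the GENCODE annotation of the build, exons of Plk3 share 84 bases, or 3.32% of its 2531 exon bases, with Tctex1d4 on the opposite strand. Exons of Cdkn1a share 273 bases, or 7.68% of 3553, with an unnamed annotated transcript on the opposite strand. Whether the counting used strand is not given in the sources used here.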

How the data were processed

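Messenger RNA libraries of GFP-sorted LSK cells were grouped by the vector label, 3 MIG-Hhex and 3 MIG, and replicate names were taken from the titles. The authors deposited 1 table of log2 values for 12161 genes. The submitters' processing notes name Subread, featureCounts, edgeR and limma, and build mm10. Tool versions, and how the log2 values were normalized, are not stated in the sources at hand. Adding log2 exon length (11700 genes matched) lowered the mean SD between the libraries' sorted values to 0.0169, against 0.0501 as deposited, so values are read as per-length levels. Counts could not be recovered, so no counting interval is given. A total of 0 sample columns were left unused.

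The log2 values were fitted with limma 3.58.1 in R 4.3.3 with terms for flow cell and vector and a mean-variance trend, leaving 3 residual degrees of freedom. P-values are two-sided, adjusted by Benjamini-Hochberg over the whole table, and called at 0.05. A filter asking for a value above the library minimum in 3 libraries removed 0 genes. Flow cells were read from the sample names in the labels. Same-named libraries of the 2 groups deviated together from their group means (correlation 0.742 for WT3, 0.585 for WT691 and 0.656 for WT703, at most 0.166 for other pairings), so the names pair the libraries, as found from the data. The labels do not say whether same-named libraries share an animal.

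The members, gene lists and tests were chosen with earlier results of these data known. Named genes are Hhex, the 10 genes, their paralogs, up to 3 genes per list and direction past the threshold by smallest p, and the 3 genes most like Plk3 and Btg2; clone names were passed over. Alternatives left out the flow cell term, used a replicate block, changed the filter, offset, scaling or trend, or left out each replicate or library. The counts of other p53 targets and of the lists under these alternatives were added after seeing the data. Start regions are RefSeq's for GRCm38.p6.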

Additional observations from a re-analysis of the deposited data

How the results depend on the processing

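The median-centred, quantile-normalized, mean-filtered and offset values each called 5 of the 10 genes higher and 1 lower, the same counts as reported. Median-centring could change little, since library medians lay between 3.56 and 3.60. The unfiltered fit was the main fit again, because the filter removed 0 genes. With no flow cell term limma called 217 of all genes, 0 of the 10 higher and 1 lower, and 1 of the other p53 targets higher and 0 lower; with no mean-variance trend it called 1429 genes, 3 and 1 of the 10, and 8 and 1 of the other targets. In a paired analysis with the replicate block, 2979 genes were called, 6 of the 10 higher (Mdm2 was added) and 1 lower, and 16 and 3 of the other targets; it changed no other call among the 10. With each replicate or library left out, between 625 genes (without WT703) and 1469 genes were called, 0 to 5 of the 10 were higher and 1 lower, and 3 to 8 of the other targets were higher and 1 to 2 lower. Of these 9 fits, the 3 without a WT3 library gave equal differences, since a lone library on its flow cell carries no information on the vector, so 7 are distinct. In those 7 Sesn2 lost its call in 6, Ccng1 in 3, Cdkn1a in 2, Btg2 and Trp53inp1 in 1 each and Plk3 in 0. Plk3 also kept its call in the other 8 alternatives, of which the unfiltered fit only repeats the main fit. The log2 difference of Trp53 ran from −0.00030 without replicate WT691 to 0.093 without replicate WT3. The cause of these shifts was not tested, beyond fewer samples in the fits with a library left out. A fit that leaves 1 library of a group on a flow cell assumes that it varies like the others. Limits are the 3 libraries a group, the unknown depth, and the unknown offset, which bears most on Plk3.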
